A study of Mus musculus with 16 samples.

Results

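The STAT genes encode the transcription factors that carry cytokine signals from receptors at the cell surface to the nucleus. They were chosen by symbol: 6 members of the family, Stat2, Stat3, Stat4, Stat5a, Stat5b and Stat6, were looked up in the log2 CPM table (CPM, read counts scaled to a common library size), and 5 of them are among its 16707 genes. Stat4 is not among these rows and is described from its reads. RNA had been sequenced from primary astrocytes of C57BL/6J mouse pups, either wild-type (WT) or Nlrx1-/-, a knockout of the mitochondrial regulator of innate immunity Nlrx1. The sample labels give the pups as postnatal day 6, and the results text of the study gives an earlier age. Cells were selected with beads against the astrocyte surface antigen ACSA-2 and were grown in serum-free medium with heparin-binding EGF, so all groups are cultured cells that had been kept in a growth factor. A culture of each litter received vehicle (water) and another received lipopolysaccharide (LPS), from the outer membrane of Gram-negative bacteria, at 500 ng/mL with the cytokine IFNγ at 10 ng/mL, both for 24 h. This gave 16 libraries: 4 WT vehicle, 4 WT LPS + IFNγ, 4 Nlrx1-/- vehicle and 4 Nlrx1-/- LPS + IFNγ, with both treatments from each of the 8 litters. Litters were read from the replicate numbers of the labels and the study's design formula.

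When a cytokine binds its receptor, kinases of the JAK family bound to the receptor phosphorylate STAT proteins, which pair through their SH2 domains, enter the nucleus and bind DNA. STAT2 joins IRF9 in the complex ISGF3, which binds interferon-stimulated response elements in genes induced by type I interferon. STAT3 acts downstream of cytokines that use gp130, such as IL-6, LIF and CNTF, and is known in astrocytes for its part in reactive gliosis and GFAP expression. STAT4 acts downstream of IL-12, STAT5A and STAT5B of growth hormone, prolactin and several interleukins, and STAT6 of IL-4 and IL-13. These activities are set largely by phosphorylation, which RNA levels do not measure, and other STAT genes are not described here.

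Salmon assigned between 27259420 and 43752903 read pairs to transcripts in a library. Nlrx1 lay between 4.08 and 4.44 log2 CPM in the WT libraries and between 1.09 and 2.96 in the Nlrx1-/- libraries, so the labels and the targeted gene went together. All 8 astrocyte markers were detected, at a summed 2254 to 5630 TPM (a measure scaled by library and transcript length). Of 8 markers of microglia and other leukocytes, 7 stayed under 1 TPM in every library, and the list summed to at most 2.04 TPM. Oligodendrocyte precursor markers, however, summed to between 1455 and 3132 TPM and all 4 genes of that list were detected. Most of that sum was Olig1 (1158 to 2572 TPM) and Olig2 (205 to 567 TPM). Pdgfra was at 5.99 to 43.8 TPM and Cspg4 at 6.32 to 14.9 TPM. In bulk RNA, fewer cells of a type and less RNA per cell cannot be told apart.

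The promoter of Stat2 is shown because Stat2 had the largest response of the family and its own product binds interferon-stimulated response elements. RefSeq promoters (GRCm38.p6, from 250 bases before to 50 bases after a gene's start) were found for all 6 genes, 9 in number because some genes have 2 starts. Each matched its gene's chromosome and strand in GRCm39 exactly once, and other chromosomes were not searched. The 150 bases that begin 250 bases before the Stat2 start lie on the plus strand of GRCm39 at chr10:128106117-128106266. Capitals mark matches, on either strand, to GAAA followed by any 2 bases and GAAA, the core of the interferon-stimulated response element, and to TTC and GAA set apart by any 4 bases, the wider palindrome that STAT6 favours:
Stat2: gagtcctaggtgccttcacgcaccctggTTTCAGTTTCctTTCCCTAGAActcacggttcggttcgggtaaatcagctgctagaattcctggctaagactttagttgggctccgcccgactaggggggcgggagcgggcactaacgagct
The first match, TTTCAGTTTC, begins at -222 (bases from the start) and is the core read on the minus strand. The second, TTCCCTAGAA, begins at -210 and does not overlap it. The core occurs in 3.44% of the 32851 promoters in the table and the wider palindrome in 6.95%. Among the other promoters of the 6 genes the core was found only at the second start of Stat4, as GAAAGTGAAA at -97. TTCNNNGAA, the gamma-activated site that most STAT dimers bind, occurs in 8.30% of promoters and in none of these 9. Such matches describe these letters in these windows and show no binding.

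Stat2 and Stat6 lie on the plus strand of chromosome 10 of GRCm39, at 128106352 to 128128735 and at 127477821 to 127496862, in the annotation GENCODE M39. Stat5b, Stat5a and Stat3 lie side by side on chromosome 11, at 100671556 to 100741589 (minus strand), 100750177 to 100776065 (plus) and 100775924 to 100830450 (minus). The ends of Stat5a and Stat3 overlap by 142 bases on opposite strands, and Stat6 overlaps Nab2. Because the libraries carry no strand information, reads from such overlaps cannot be assigned by strand. Stat5a and Stat5b arose by duplication: 9.79% of the 31-base words in Stat5a transcripts also occur in Stat5b transcripts, and their values are uncertain to the extent that such reads were split wrongly. Stat4 lies on the plus strand of chromosome 1, at 52026307 to 52151423.

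Per transcript length, Stat3 was the most abundant of the 6 genes in every condition. In WT vehicle its summed TPM was 145 ± 10.7 (SD, n = 4), against 17.8 ± 0.887 for Stat5b, 11.8 ± 0.848 for Stat2, 3.21 ± 0.479 for Stat6 and 1.31 ± 0.195 for Stat5a. The order in Nlrx1-/- vehicle was the same, with 124 ± 12.1 for Stat3, 17.1 ± 0.617 for Stat5b and 10.8 ± 1.98 for Stat2. After LPS + IFNγ, Stat2 passed Stat5b in both genotypes and came second, at 137 ± 21.3 TPM in WT and 154 ± 27.4 in Nlrx1-/- libraries. Stat3 was then at 271 ± 9.08 and 237 ± 16.7 TPM, and Stat5b at 31.4 ± 1.65 and 28.9 ± 0.725. In each condition the ranges over the 4 libraries did not overlap between neighbours in this order. The ratio of Stat3 to Stat2 TPM was between 9.50 and 13.96 in the vehicle libraries and between 1.15 and 2.33 in the treated ones. Stat2 thus made up 6.62% of the summed TPM of the 6 genes in WT vehicle and 30.7% in WT LPS + IFNγ, and Stat3 80.9% and 60.9%. In Nlrx1-/- libraries the share of Stat2 was 6.90% and 36.0%.

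**Figure D1:**
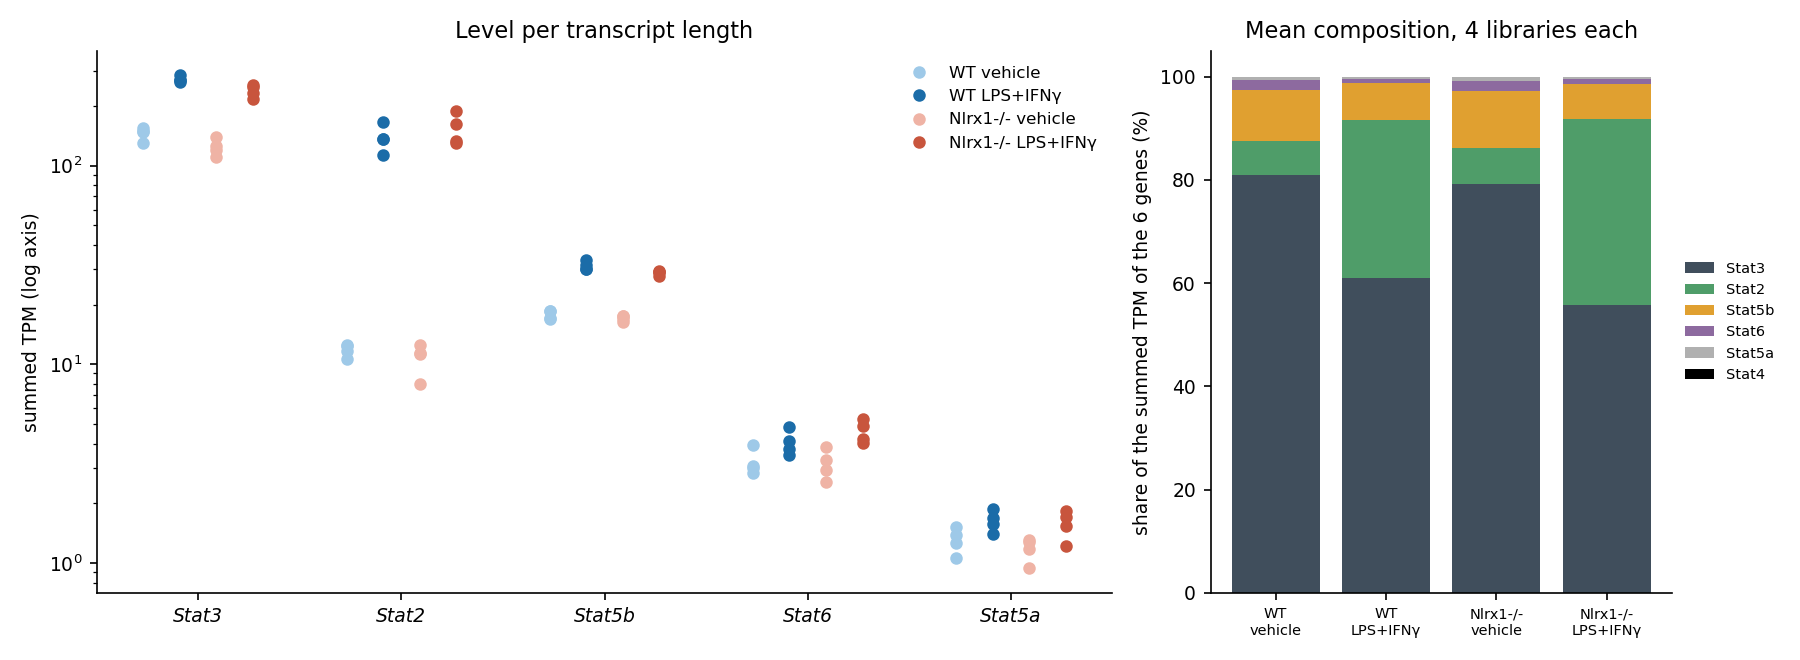
Left, summed TPM (log axis) of 5 STAT genes in each of the 16 libraries, 1 point per library, coloured by condition; right, mean share of each gene in the summed TPM of the 6 genes (%), 4 libraries per bar. Stat3 lies highest in every condition, and Stat2 lies below Stat5b in vehicle and above it after LPS + IFNγ.

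Stat4 was close to absent. Its transcripts received 0 to 7 reads per library, with 2, 0, 0 and 2 in WT vehicle, 0, 6, 2 and 6 in WT LPS + IFNγ, 0, 6, 2 and 1 in Nlrx1-/- vehicle and 0, 7, 0 and 2 in Nlrx1-/- LPS + IFNγ (litters 1 to 4). This corresponds to at most 0.185 TPM. No fold change was computed, since each group held a library with 0 reads, and a count of 0 still allows up to 3. Markers of T and NK cells, the cells in which STAT4 is best known, were all under 1 TPM in every library.

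Stat2 rose in all 8 litters. In WT its level was 4.49, 4.66, 4.72 and 4.75 log2 CPM in vehicle (litters 1 to 4) and 8.36, 8.44, 8.15 and 8.66 after LPS + IFNγ. In Nlrx1-/- astrocytes it was 4.64, 4.18, 4.80 and 4.66 in vehicle and 8.36, 8.73, 8.32 and 8.93 after treatment. Every treated library lay above every vehicle library, with litter 2 of the Nlrx1-/- mice lowest in vehicle. The response within litters was 3.75 ± 0.22 log2 units in WT (SD, n = 4) and 4.02 ± 0.48 in Nlrx1-/- litters, and the ranges overlapped. In edgeR's quasi-likelihood fit with litters as blocks, the log2 fold change was 3.74 in WT (standard error 0.16, adjusted p = 2.47e-08), or 13.34-fold, and 4.00 in Nlrx1-/- (also 0.16, adjusted p = 1.48e-08), or 16-fold. Of the 16070 genes tested, 98.3% had a smaller log2 fold change than Stat2 in each genotype.

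Stat3 had a response of about 1 log2 unit that varied little among litters. It was at 8.30, 8.35, 8.13 and 8.40 log2 CPM in WT vehicle and at 9.35, 9.45, 9.39 and 9.47 in WT LPS + IFNγ. Nlrx1-/- libraries held 8.27, 8.001, 8.07 and 8.16 in vehicle and 9.28, 9.26, 9.30 and 9.15 after treatment. Vehicle and treated libraries did not overlap in either genotype, and the 4 treated Nlrx1-/- libraries lay below the 4 treated WT libraries. The log2 fold change was 1.11 in both WT (95% confidence interval 0.97 to 1.25, adjusted p = 2.82e-07 from edgeR) and Nlrx1-/- (0.97 to 1.25, adjusted p = 2.8e-07). The response was larger than in 93.9% of genes in WT and 92.9% in Nlrx1-/- astrocytes.

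Stat5b, the more abundant of the paralogs that signal for growth hormone and prolactin, rose about 2-fold. Its levels were 5.45, 5.38, 5.33 and 5.48 log2 CPM in WT vehicle and 6.50, 6.51, 6.41 and 6.38 after LPS + IFNγ. In Nlrx1-/- libraries they were 5.43, 5.49, 5.34 and 5.41 in vehicle and 6.27, 6.42, 6.34 and 6.39 after treatment. The litters were close together and the treatments about 1 log2 unit apart. The log2 fold change was 1.03 in WT (standard error 0.06, with an adjusted p of 2.5e-07 from edgeR) and 0.92 in Nlrx1-/- (standard error 0.06, adjusted p = 5.25e-07). Stat5b exceeded Stat5a by 12.2 to 17.9 times in TPM over the vehicle libraries and by 15.2 to 24.2 times over the treated ones.

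Stat5a had the smallest and least certain response. Its levels were 1.38, 1.28, 1.02 and 1.54 log2 CPM in WT vehicle and 1.85, 1.68, 1.81 and 2.03 after treatment. In Nlrx1-/- libraries they were 1.31, 1.40, 1.22 and 0.93 in vehicle and 2.00, 1.99, 1.41 and 1.82 after LPS + IFNγ. The groups did not overlap, but treated litter 3 of the Nlrx1-/- mice stood barely above the highest vehicle library. The responses within litters ran from 0.40 to 0.79 in WT and from 0.19 to 0.89 in Nlrx1-/- litters. The log2 fold change was 0.53 in WT (standard error 0.18, with an adjusted p of 0.037 from edgeR) and 0.59 in Nlrx1-/- (standard error 0.18, adjusted p = 0.0219). These calls did not hold in every fit: DESeq2 gave an adjusted p of 0.0532 in WT, and in edgeR without TMM factors the log2 fold changes were 0.37 (adjusted p = 0.118) and 0.42 (adjusted p = 0.0738). With 1 litter left out in turn, the WT call was lost without any of the 4 WT litters or without Nlrx1-/- litter 1, and the Nlrx1-/- call without Nlrx1-/- litter 1, 2 or 4, with log2 fold changes of 0.45 to 0.58 in WT and 0.49 to 0.71 in Nlrx1-/- and adjusted p up to 0.141 and 0.0803.

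Stat6, the factor of IL-4 and IL-13 signalling, rose modestly. It was at 2.36, 2.51, 2.44 and 2.84 log2 CPM in WT vehicle and at 2.95, 3.17, 2.91 and 3.33 after LPS + IFNγ. In Nlrx1-/- libraries it was at 2.63, 2.52, 2.28 and 2.87 in vehicle and at 3.14, 3.17, 3.46 and 3.43 after treatment. WT litter 4 was the highest WT litter in both treatments, and Nlrx1-/- litter 4, a different litter, was the highest in Nlrx1-/- vehicle. Nlrx1-/- litter 3, lowest in vehicle and highest after treatment, had the largest response, at 1.18. The log2 fold change was 0.54 in WT (standard error 0.13, with an adjusted p of 0.0071 from edgeR) and 0.71 in Nlrx1-/- (standard error 0.13, adjusted p = 0.0012).

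**Figure D2:**
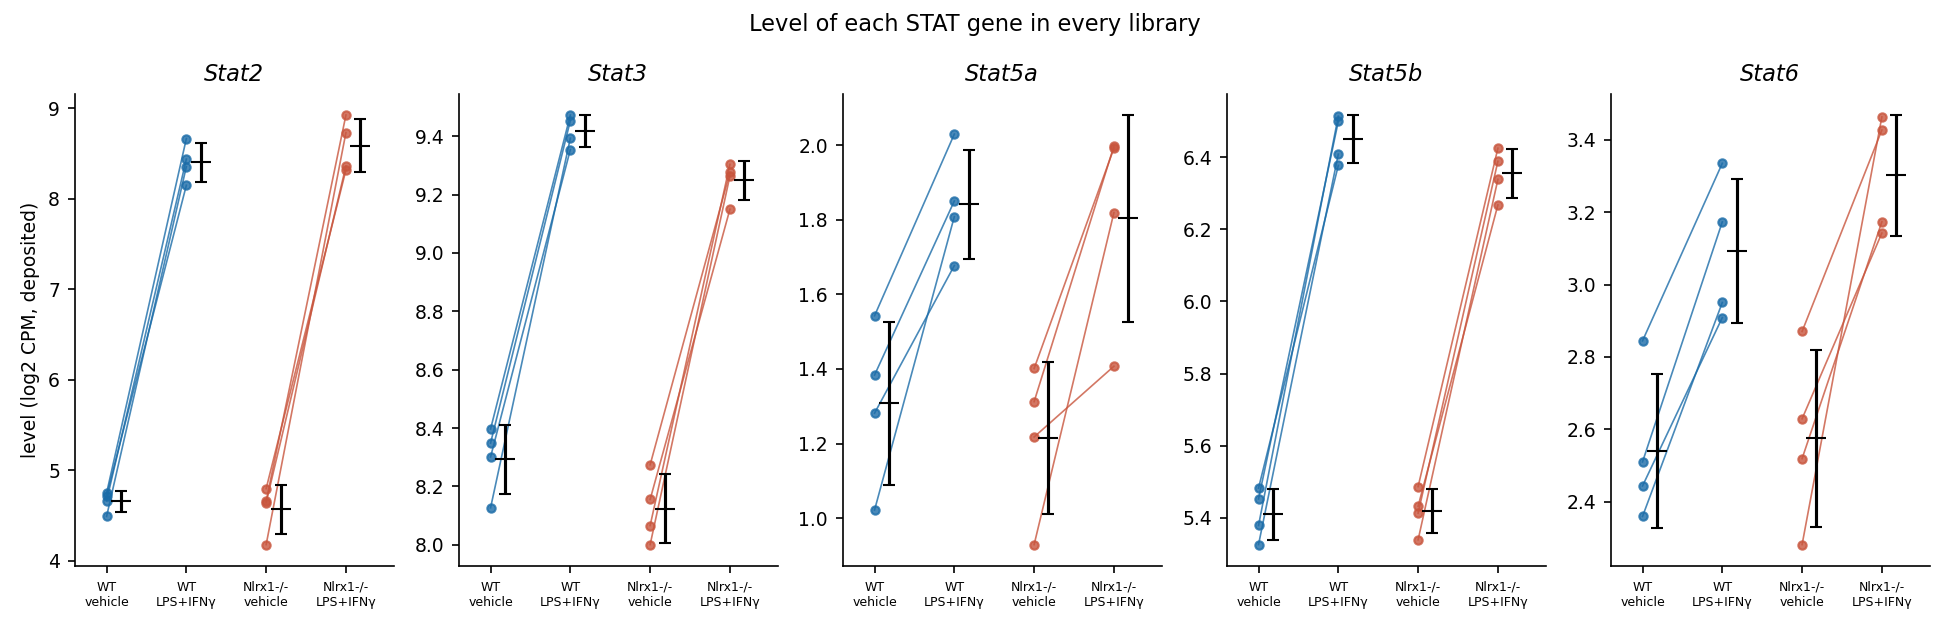
Level of each STAT gene (log2 CPM, a separate axis for each gene that does not start at 0) in the 16 libraries by condition; points are libraries, lines join the vehicle and LPS + IFNγ libraries of a litter, and black marks give mean and SD (n = 4). All lines rise, by about 4 log2 units for Stat2, about 1 for Stat3 and Stat5b and less for Stat5a and Stat6.

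All 5 genes tested were therefore called higher after LPS + IFNγ in both genotypes, where 23.7% of all genes were called higher in WT and 25.2% in Nlrx1-/- astrocytes, and 43.9% and 49.4% in either direction. Every treated library lay above every vehicle library for 5 of the 5 genes in both genotypes, which holds for 20.2% of the genes of the log2 CPM table in WT and 17.6% in Nlrx1-/-. The size depended on the scale. Relative to TPM, responses in log2 CPM were higher by a median of 0.22 log2 units over all genes in WT and 0.18 in Nlrx1-/-. As a ratio of TPM within litters, the mean response over the 8 litters was 13.25-fold for Stat2, 1.90-fold for Stat3, 1.73-fold for Stat5b, 1.38-fold for Stat6 and 1.31-fold for Stat5a, and no litter had a ratio under 1 for any of them. Neuronal markers were a list of 5 genes, all of them detected. They summed to 29.7 to 40.0 TPM in vehicle and 73.4 to 113 TPM in treated libraries. Most of this rise was in Tubb3, at 5.62 to 14.5 TPM in vehicle and 57.3 to 92.7 TPM in treated libraries. Rbfox3 fell from 1.71 to 2.10 TPM in vehicle to 0.649 to 1.39 TPM, and Syp from 15.96 to 20.8 TPM to 8.45 to 13.5 TPM. For Snap25 and Syt1 the vehicle and treated ranges over both genotypes overlapped, though Syt1 was lower in treated Nlrx1-/- libraries. Oligodendrocyte markers, of which Mog stayed under 1 TPM, summed to 44.6 to 488 TPM in vehicle and 19.3 to 243 TPM in treated libraries. The part of such cells in these responses was not tested.

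**Figure D3:**
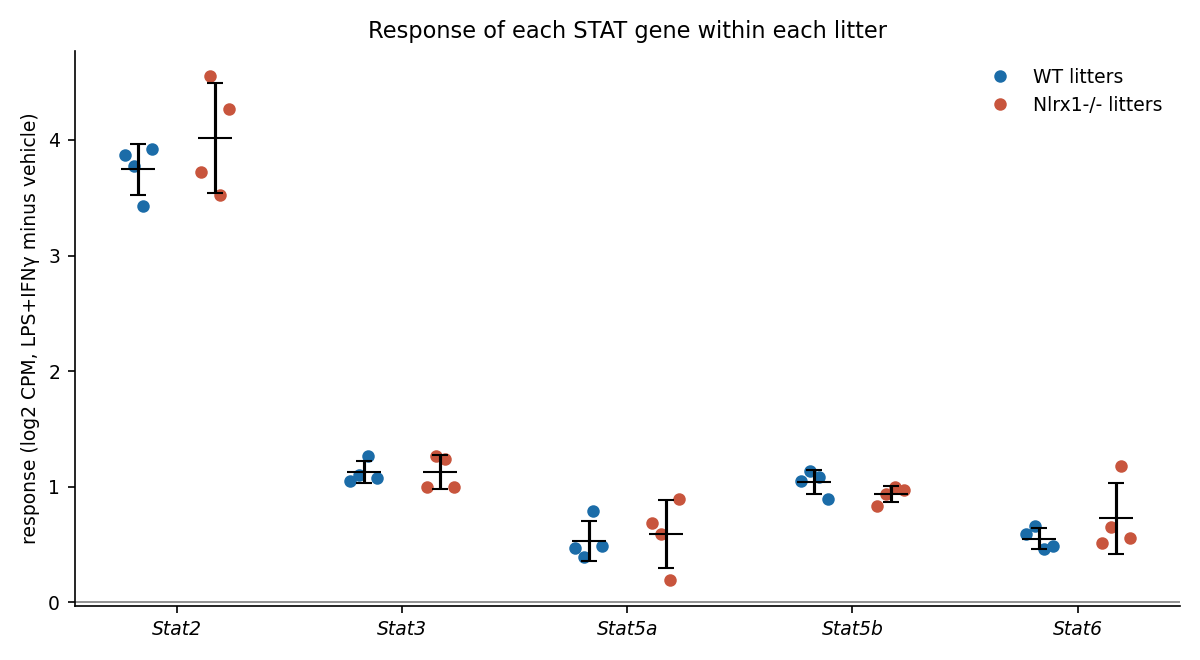
Response of each STAT gene within each litter (log2 CPM, LPS + IFNγ minus vehicle) in WT (blue) and Nlrx1-/- (red) litters; points are litters and black marks give mean and SD (n = 4). All 40 responses are above 0, and the ranges of the genotypes overlap for each gene.

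Whether the loss of Nlrx1 changed these responses was tested as the interaction of genotype and treatment. None of the 5 genes was called by edgeR, where 0% of all genes were called, and none had an unadjusted p under 0.05. DESeq2 and limma-voom called none of the 5 either, while over all genes DESeq2 called 104 higher and 181 lower and limma-voom 0. For Stat2 the Nlrx1-/- response exceeded the WT response by 0.26 log2 units (95% confidence interval -0.19 to 0.72, adjusted p = 0.574 from edgeR). For Stat3 the difference was -0.005 (-0.20 to 0.19), for Stat5a 0.05 (-0.52 to 0.63), for Stat5b -0.11 (-0.28 to 0.07) and for Stat6 0.17 (-0.25 to 0.58). The intervals were narrow for the abundant Stat3 and Stat5b and wide for Stat5a, the gene with few reads. Litter responses did not separate the genotypes for any of the 5 genes, against 8.31% of the genes in the table.

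Nor was any of the 5 called between genotypes within a treatment. In vehicle, 0% of all genes were called by edgeR, and Stat3 alone of the 5 had an unadjusted p under 0.05, at -0.18 log2 units in Nlrx1-/- against WT (95% confidence interval -0.34 to -0.02, adjusted p = 0.209). After LPS + IFNγ, where 5.03% of all genes were called, Stat3 was again at -0.18 (-0.34 to -0.03, adjusted p = 0.121 from edgeR). It again alone of the 5 had an unadjusted p under 0.05. The 5.03% depended on the libraries fitted. In the 8 treated libraries alone edgeR called 0 genes higher and 0 lower, and without WT litter 2 it called 0 and 1. DESeq2 and limma-voom called none of the 5 in either treatment. The genotypes did not overlap at Stat3 after LPS + IFNγ, the case for 1 of the 5 genes against 13.3% of the genes in the table. In vehicle they overlapped for all 5, against 9.45% of genes that did not. The astrocyte markers, 8 of 8 detected, summed to 2738 to 4122 TPM in treated WT and 2254 to 3171 TPM in treated Nlrx1-/- libraries, and in vehicle to 3286 to 5630 and 2301 to 4035 TPM. Single astrocyte markers differed in this. In treated WT and Nlrx1-/- libraries Gfap was at 509 to 1067 and 240 to 704 TPM, and Gja1 at 124 to 352 and 71.4 to 148. Slc1a3 was at 1102 to 1323 and 1099 to 1227 TPM, and Aldh1l1 at 624 to 697 and 578 to 646. Sox9 was at 145 to 234 and 107 to 193 TPM, and Slc1a2 at 54.2 to 108 and 27.0 to 68.4. Aqp4 was at 170 to 317 and 57.3 to 176 TPM. S100b, at 8.78 to 23.9 and 1.51 to 8.29 TPM, did not overlap. In vehicle Aldh1l1 was at 464 to 546 TPM in WT and 506 to 578 in Nlrx1-/- libraries. The 3 ependymal markers summed to 88.8 to 126 TPM in treated WT and 47.8 to 84.1 in treated Nlrx1-/- libraries, without overlap. In vehicle they summed to 146 to 207 and 76.1 to 153 TPM. Most of this was Foxj1, at 82.7 to 109 TPM in treated WT and 45.8 to 79.2 TPM in treated Nlrx1-/- libraries. Rsph1 was at 5.29 to 15.1 and 2.02 to 4.76 TPM there, and Tmem212 at 0 to 1.61 and 0 to 0.224. The 5 oligodendrocyte markers summed to 93.3 to 243 TPM in treated WT and 19.3 to 120 TPM in treated Nlrx1-/- libraries (medians 163 and 36.7). The part of these cells in the lower Stat3 level was not tested. Differences for the others ran from -0.11 for Stat5a to 0.03 for Stat6 in vehicle and from -0.11 for Stat5b to 0.19 for Stat6 after treatment.

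**Figure D4:**
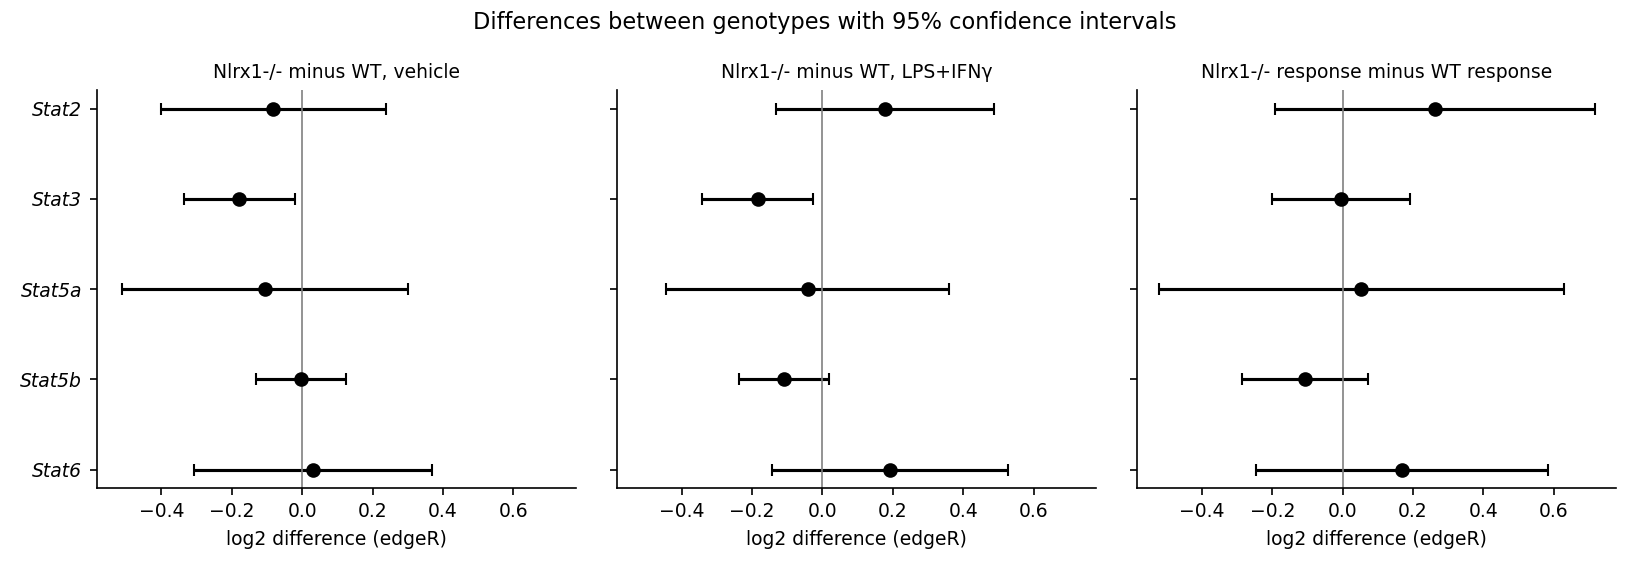
Log2 differences between Nlrx1-/- and WT from edgeR for 5 STAT genes in vehicle (left), after LPS + IFNγ (middle) and between their responses (right); points are estimates and bars are 95% confidence intervals, from 4 litters per genotype. Of the 15 intervals, the 2 of Stat3 within a treatment lie below 0, at -0.18 in both, and neither passes the adjusted threshold.

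Stat3 is spliced into transcripts that encode proteins with different ends. The transcript NM_213659.3 held 77.5% ± 1.77 of Stat3's TPM in WT vehicle (SD, n = 4) and 76.4% ± 2.82 in WT LPS + IFNγ. NM_213660.3, which is 3 bases shorter, held 13.1% ± 2.51 and 12.3% ± 1.80 in WT, and 15.7% ± 3.99 and 13.7% ± 0.844 in Nlrx1-/- libraries. NM_011486.5, which is 50 bases shorter than the leading transcript, held between 5.25% and 11.8% over the 16 libraries. Its mean was under the 10% set for testing, so its share was not tested. The protein ends of these transcripts were not examined. The share of NM_213660.3 changed by -1.45 percentage points over the 8 litters (SD 2.94), lower in 6 and higher in 2, which did not pass an exact two-sided sign-flip test (p = 0.219, adjusted over 2 transcripts 0.438, smallest possible 0.00781). For Stat5a, at 1.31 TPM in WT vehicle, the split between NM_001362680.1 and XM_006532721.3 ran from 0% to 100% between libraries of a group, so its transcripts were not resolved at this depth (mean change in the share of NM_001362680.1 -6.64 percentage points, exact sign-flip p = 0.812, adjusted p = 0.812). Stat4 had too few reads for shares.

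The genes whose profile over the 16 libraries was most like that of each STAT gene were found by the root mean square difference of log2 CPM, each gene centred on its mean, among 11966 genes. For Stat2 these were Herc6, an interferon-induced HERC family ligase, at 0.14 log2 units, and Parp9, at 0.17. For Stat3 they were Ppp6r1 and Rnf115 at 0.12 each, and for Stat5b Uggt1 and Zfp521 at 0.09 each. Stat5a was nearest to Pla2g6 (0.14) and Abhd2 (0.16), and Stat6 to Trp53inp1 (0.16). The match was closest for Stat2 relative to its own spread, an SD of 2.02 over the libraries against 0.35 for Stat5a.

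The other genes of the pathway were counted list by list, against the 23.7% of all genes that edgeR called higher and 43.9% called in either direction in WT, and 25.2% and 49.4% in Nlrx1-/- astrocytes. Scaling by library totals alone, without TMM factors, moved several of these counts. All 4 JAK genes, the kinases that act before the STATs, were tested and had smaller changes than Stat2. In WT 2 were called higher (3 by limma-voom): Jak2, the kinase of the IFNγ and growth hormone receptors, by 0.81 log2 units (adjusted p = 2.07e-06 from edgeR) and Jak1 by 0.30 (adjusted p = 0.000333). In Nlrx1-/- all 4 were called, Jak3 at 0.80 and Tyk2 at 0.23, where the WT values of 0.29 and 0.17 were not called; the differences between these responses, 0.51 and 0.06, were not called either (adjusted p = 0.337 and 0.821 from edgeR). The count of 4 was 3 without TMM factors and without Nlrx1-/- litter 2 or 4. Of 20 receptor chains tested, 9 were called higher and 3 lower in WT, and 10 and 2 in Nlrx1-/-, with a median of 0.26 and 0.36 log2 units, against -0.02 and -0.03 over all genes. Without TMM factors the counts were 7 higher and 5 lower in WT and 10 and 6 in Nlrx1-/-, and the lower count fell to 1 in WT without WT litter 1, 3 or 4 and to 1 in Nlrx1-/- without any 1 litter other than Nlrx1-/- litter 2. Il12rb1, a chain of the IL-12 receptor that signals to STAT4, had 7 reads in all in WT vehicle and 1049 to 2162 per library in WT LPS + IFNγ, and 0 reads in Nlrx1-/- vehicle against 1445 to 1985, at least 2414-fold higher. Its partner chain Il12rb2 fell by 0.86 log2 units in WT (adjusted p = 0.0358). Il15ra rose by 2.15 and Il6ra, the chain that gives gp130 its IL-6 specificity, by 2.05 in WT, while Ghr, the growth hormone receptor, fell by 0.59 and Ifngr2 fell by 0.19. In Nlrx1-/-, Ghr was at -0.19 and was not called, nor was the difference of 0.41 between its responses (adjusted p = 0.362 from edgeR).

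Few ligands passed the count filter, 6 of 22, and 4 of these were called higher in each genotype (DESeq2 and limma-voom also called 1 lower in WT). Lif, a gp130 cytokine, rose by 2.76 log2 units in WT and 3.17 in Nlrx1-/-, Il15 by 2.16 and 1.93, Il7 by 1.63 and 2.42, and Clcf1 by 1.29 and 2.21. Of 19 inhibitors tested, 5 were called higher and 1 lower in WT, and 7 and 0 in Nlrx1-/-. Without TMM factors these counts were 4 and 3, and 6 and 2, and the lower WT count was 0 without WT litter 2 or 4. Socs1, which blocks JAK kinases, rose by 6.22 log2 units in WT and 6.27 in Nlrx1-/- (adjusted p = 1.54e-09 and 1.38e-09 from edgeR). Usp18, which holds back signalling at the type I interferon receptor, rose by 4.87 and 5.15, and Socs3, the inhibitor at gp130, by 0.48 and 1.18. Socs2 fell by 1.08 in WT (adjusted p = 0.0112) and was at 0.32 in Nlrx1-/-, not called. The difference between these Socs2 responses, 1.40, was not called either (adjusted p = 0.223).

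Irf9, the DNA-binding partner of STAT2, rose by 2.35 log2 units in WT and 2.60 in Nlrx1-/- (adjusted p = 6.29e-08 and 2.82e-08 from edgeR). Of the 11 partners and coactivators tested, 6 were called higher in each genotype, and 2 were called lower in WT and 0 in Nlrx1-/-. Without TMM factors 4 were higher and 4 lower in WT, and 4 and 3 in Nlrx1-/-. Nmi, an interferon-induced protein that binds STATs, rose by 2.63 and 2.80, and Jun by 1.35 and 1.81. The acetyltransferases Crebbp and Ep300 each fell by 0.22 in WT and were at -0.10 and -0.02 in Nlrx1-/-, and the differences between these responses were not called (adjusted p = 0.412 and 0.237 from edgeR).

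All 15 targets of ISGF3 tested were called higher in both genotypes, with a median of 5.68 log2 units in WT and 5.95 in Nlrx1-/-. The antiviral genes Mx1 and Oas2 had 0 reads in WT vehicle and 157 to 631 and 26 to 185 reads in WT LPS + IFNγ, at least 444-fold and 114-fold higher. Oas1a rose from 8 reads over the 4 WT vehicle libraries to 792 to 2044 per library. Several of these genes are also known targets of other interferon-activated factors. Placing the genes at 0 reads at their lower bounds left both medians the same.

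Targets of STAT3 were mixed in WT: of 18 tested, 8 were called higher and 2 lower, with a median of 0.23 log2 units. In Nlrx1-/- 12 were called higher and 0 lower, with a median of 0.80. Without TMM factors 7 were higher and 7 lower in WT (median 0.07) and 10 and 1 in Nlrx1-/- (median 0.64). The lower WT count was 4 without Nlrx1-/- litter 2, and 1 without WT litter 1, 2 or 3. Icam1, the adhesion molecule that NF-κB also induces, rose by 5.25 and 5.35. Lcn2, a marker of reactive astrocytes, was at 0 to 10 reads per WT vehicle library and at 1074 to 3386 in WT LPS + IFNγ, and Bcl3 rose by 4.22 in WT. Fos fell by 1.27 and Bcl6 fell by 0.33 in WT. The Nlrx1-/- response was the larger by the estimate for 18 of the 18 targets, with a median difference of 0.51 log2 units, against -0.02 over all genes. These targets were measured in the same litters, so they are not separate replicates. The list was also chosen with earlier results of these data known. In vehicle, 4 of the 18 were higher in Nlrx1-/- than in WT by the estimate, with a median difference of -0.36, and after LPS + IFNγ 13 of the 18, with a median of 0.24, none of them called. None of the differences in response was called by edgeR (11 had an unadjusted p under 0.05, as had 2469 of all 16070 genes), and DESeq2 called 3 and limma-voom 0. Leaving out 1 litter in turn gave medians of 0.32 to 0.69, lowest without Nlrx1-/- litter 2, and 2 targets were called in edgeR without Nlrx1-/- litter 3. For Stat3 itself the difference in response was -0.005. In the other target lists the Nlrx1-/- response was the larger by the estimate for 11 of 15 ISGF3 and 7 of 8 STAT5 targets. It was also the larger for 3 of 4 STAT4 and 4 of 5 STAT6 targets. In this order the median differences were 0.05, 0.20, 0.13 and 0.30. After LPS + IFNγ, 13 of 15 ISGF3 targets (median 0.67) and 5 of 8 STAT5 targets (median 0.48) had higher estimates in Nlrx1-/-. In vehicle these counts were 10 (median 0.41) and 3 (median -0.08).

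Of 4 STAT4 targets tested, 2 were called higher and 1 lower in each genotype; the lower WT call was lost without WT litter 1, 3 or 4, and without TMM factors 1 was higher in WT. Tbx21, the T-bet gene, rose by 3.77 log2 units in WT from 0 to 9 reads per vehicle library to 42 to 79, and Furin rose by 0.30. Of 8 STAT5 targets, 3 were called higher and 2 lower in WT, and 5 and 0 in Nlrx1-/-. The WT counts were 2 and 0 without WT litter 2, 2 and 1 without WT litter 1, 3 and 1 without WT litter 3 or 4, and 2 and 2 without TMM factors, and the Nlrx1-/- counts were 4 and 1 with DESeq2 and 4 and 2 without TMM factors. The cyclin genes Ccnd1 and Ccnd2 rose by 1.31 and 0.43 in WT, and the survival gene Bcl2l1 by 0.65. Of 5 STAT6 targets, 2 were called higher in WT and 3 in Nlrx1-/-: Tgm2, which encodes transglutaminase 2, by 3.45 and 4.56, Il4ra by 0.52 and 0.74, and Klf4 by 0.79 in Nlrx1-/- (0.19 in WT, not called; the difference of 0.60 had an adjusted p of 0.300 from edgeR). The WT count was 1 without WT litter 2, 3 or 4 and without TMM factors. Socs3, Usp18, Socs2, Il6st, Osmr, Il4ra, Il12rb2, Cish and Bcl6 are each in more than 1 of these lists. Between genotypes after LPS + IFNγ, where 5.03% of all genes were called, edgeR called 3 of the listed genes, each just under the threshold. They were 1 of 19 inhibitors, 1 of 11 partners and coactivators and 1 of 5 STAT6 targets, and no gene of the other lists was called. In a fit of the 8 treated libraries alone, edgeR called 0 genes higher and 0 lower over all genes. The phosphatase gene Ptpn1, at 0.30 log2 units (adjusted p = 0.0458), and Klf4, at 1.35 (adjusted p = 0.0489), were higher in Nlrx1-/-, and the coactivator gene Ncoa1, at -0.34 (adjusted p = 0.0462), was lower. With 1 litter left out in turn, no inhibitor was called higher in 7 of the 8 fits, no partner or coactivator lower in 6 and no STAT6 target higher in 6. Limma-voom called no partner lower and no STAT6 target higher. Among the inhibitors, DESeq2 called 3 higher and 1 lower, as did edgeR without Nlrx1-/- litter 3. Without WT litter 1 edgeR called 1 inhibitor lower.

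**Figure D5:**
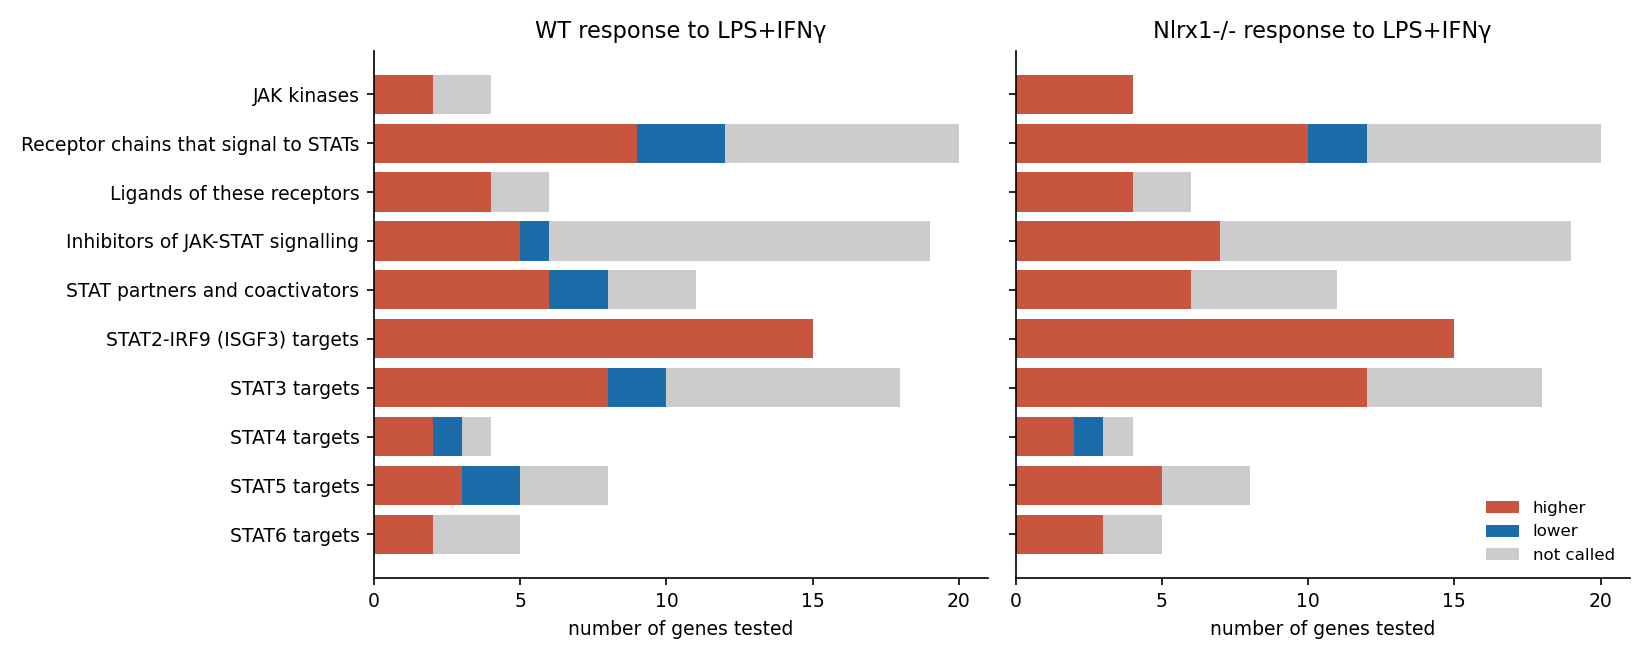
Number of genes in each JAK-STAT list that edgeR called higher (red), lower (blue) or did not call (grey) after LPS + IFNγ, in WT (left) and Nlrx1-/- (right) astrocytes; the horizontal axis counts genes tested. All 15 ISGF3 targets were higher in both genotypes, and the other lists held genes of each kind or genes not called in at least 1 genotype.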

How the data were processed

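Poly-A RNA of 16 libraries was sequenced without strand information. The authors quantified transcripts with Salmon 1.7.0 on GRCm39 and deposited, for each of 129698 transcripts, an expected count, which is not normalised, and a TPM. The log2 values the authors deposited are log2 CPM per gene, made from tximport length-scaled counts with filterByExpr, TMM and limma-voom (limma 3.58.1 per the submitters' processing notes). A deposited table of CPM was not used. Expected counts and TPM were summed per gene over the 106440 transcripts paired by accession with RefSeq genes, which hold 96.7% to 97.3% of reads. Reads of the other 23258 transcripts are missing from their genes. For the 5 STAT genes listed there, summed counts lay within 0.0905 log2 units of the deposited values.

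The quasi-likelihood test of edgeR 4.0.16 (R 4.3.3) was applied to counts with TMM factors and offsets for length, for 16070 genes that passed filterByExpr (minimum count 10), with Benjamini-Hochberg adjustment over all of them and a threshold of 0.05. Responses and their interaction were fitted with litters as blocks within genotype, the study's design formula. The fit for differences between genotypes had the 4 conditions alone, because each litter has 1 genotype. That fit took the spread from all 16 libraries and treated both libraries of a litter as independent. The labels give replicate numbers alone, which were read as litters within a genotype from the study's design formula. The libraries of a litter correlated at 0.07 to 0.35 (log2 CPM centred by condition, across genes), against a median of -0.05 between litters, and those of the same number in different genotypes at -0.09 to 0.18, so numbers were not paired across genotypes. Each litter counts as 1 replicate in the blocked fits and in the tests of transcript shares. Transcript shares were tested by exact sign flips over litters, for genes with at least 2 transcripts at a mean of 10% of TPM or more, and with 2 such transcripts only the smaller was tested.

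Alternatives used DESeq2 1.42.0 (on rounded counts), limma-voom, the deposited log2 values, other size factors, no length offsets, no count filter, a threshold of 0.01, the block and leaving out each litter. Another 3 were chosen after seeing the data: no TMM factors, and the 8 libraries of each treatment alone. The scripts were tested on simulated data. Plots were drawn in matplotlib 3.10.9, and tables handled in pandas 2.3.3 and numpy 2.4.6 (Python 3.11.15) and data.table, version 1.17.8.

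The STAT genes and the pathway lists were chosen with earlier results of these data known. The genes named are the STAT genes, Nlrx1, for each list up to 3 called higher and 3 called lower with the largest WT change and a mean of at least 1 CPM, and the 2 genes most alike to each STAT gene (mean log2 CPM of at least 1), of which 1 is not reported here. Other listed genes (Jak3, Tyk2, Clcf1, Klf4, Ptpn1 and Ncoa1) were named after their values were seen. The inhibitor list holds Sh2b3 under 2 names.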

Additional observations from a re-analysis of the deposited data

Results flagged for a closer look

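The values of the STAT genes in the 38 groups of 4 libraries or litters (levels, responses and transcript shares) were searched for a lone sample far from the other 3, a search that chance meets in about 1 group in 20. It marked 2 groups, both of transcript shares. In WT vehicle, Stat3 transcript NM_213660.3 held 9.37% of Stat3's TPM in litter 4, where the other 3 litters held 14.3% to 14.5%. In Nlrx1-/- vehicle, Stat5a transcript NM_001362680.1 held 100.0% of Stat5a's TPM in litter 1, where the other 3 litters held 0%. The same Stat5a transcript held between 0% and 100.0% in WT vehicle as well. None of the gene levels or responses was marked, and no interaction of genotype and treatment was called for any of the 5 genes tested.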

How the results depend on the processing

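Stat2, Stat3, Stat5b and Stat6 kept their rise and their call in both genotypes under all alternatives run, and levels recomputed from summed counts differed from the deposited ones by less than 1 SD. Only Stat5a's calls were lost, in 9 of 17 alternatives in WT and 5 of 17 in Nlrx1-/-: at a threshold of 0.01 and without TMM factors in both genotypes, with DESeq2 (0.52 log2 units, adjusted p = 0.0532) and without a count filter (adjusted p = 0.06) in WT, and with 1 litter left out. Without the replicate block the count of STAT genes called stayed at 5 in each genotype, and with a replicate block on the number shared by both genotypes it stayed at 0 in vehicle and 0 after LPS + IFNγ. The paired fit thus changed no call. Over all genes, DESeq2 called 421 higher and 252 lower in vehicle, where edgeR called 0 (3156 at an unadjusted p under 0.05) and limma-voom 1.

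Differences near 0 that were not called changed sign. The Stat3 interaction was 0.0064 with DESeq2, 0.0064 with its size factors in edgeR and -0.053 to 0.0425 with 1 litter left out. Stat5b in vehicle was 0.0186 in limma-voom, 0.0079 in limma on the deposited values, 0.0161 without length offsets, 0.0029 in the 8 vehicle libraries alone and -0.032 to 0.0297 with 1 litter left out. Stat5a after LPS + IFNγ was 0.0169 without length offsets. With 1 litter left out it ran from -0.106 to 0.0712, its interaction from -0.0465 to 0.177, the Stat2 and Stat6 differences in vehicle from -0.154 to 0.0322 and from -0.0768 to 0.152, and the share of Stat5a NM_001362680.1 from -21.9 to 6.70 percentage points. The cause was not tested. With 4 litters per genotype and 69.3 to 150.2 reads per library at Stat5a, small differences could not be detected.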
